A study of Mus musculus with 2 samples.

Results

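Genes of one signalling pathway are described here across cells of the adult mouse subventricular zone: the Id genes (Id1, Id2, Id3, Id4), receptors for bone morphogenetic proteins (Bmpr1a, Bmpr1b, Bmpr2), the secreted BMP antagonist Chrdl1 and the signal transducers Smad1 and Smad5. They were chosen by gene symbol, and these 10 were all found among the 27998 genes of the matrix, of which 18470 had a UMI, the molecular tag that lets a captured transcript be counted once. Single cells came from the lateral ventricle's stem cell niche of male C57BL/6 mice, 1 group aged 22 months with tissue of 8 animals pooled and 1 group aged 2 months with tissue of 4 animals pooled. Sorting took cells with GLAST, a glutamate transporter of astrocytes and radial glia-like stem cells, and left out cells with O4 (oligodendrocyte lineage), Ter119 (erythroid) or CD45 (leukocyte). From each age, 8000 sort events entered a 3' droplet library. Each barcode carries a library number that no label ties to an age, so values are given for library 1 and library 2, and no age is assigned to either.

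BMP ligands bind pairs of type I and type II receptor kinases at the cell surface. The type I receptor phosphorylates SMAD1, SMAD5 or SMAD9, which enter the nucleus with SMAD4 and raise transcription of target genes, the Id genes foremost. Id proteins have a helix-loop-helix domain but no DNA-binding region. They occupy E proteins such as TCF3, TCF4 and TCF12 and so keep them from pairing with proneural factors. In this niche BMP signals and Id proteins are known for holding stem cells in an undifferentiated, slowly dividing state.

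Upstream sequence of Id2 and Id4 is shown because these genes were high in the same cells in the results that follow, and because both stretches hold GGCGCC, a palindrome known as a GC-rich SMAD-binding element. RefSeq start-site windows (250 bases before to 50 after a start, build GRCm38.p6) were found for 8 of the 10 genes, with none for Id1 and Chrdl1. Capitals mark GGCGCC. The Id2 stretch is chr12:25096254-25096342 on the minus strand, the Id4 stretch is chr13:48260866-48261115 on the plus strand, and both read 5′ to 3′ on the strand of the gene. The Id4 stretch lies before the annotated gene. The Id2 stretch lies before the RefSeq start used here, but inside an intron of a longer GENCODE transcript of Id2, and holds no annotated exon.
Id2: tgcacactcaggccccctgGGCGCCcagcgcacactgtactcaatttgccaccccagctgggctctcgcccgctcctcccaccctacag
Id4: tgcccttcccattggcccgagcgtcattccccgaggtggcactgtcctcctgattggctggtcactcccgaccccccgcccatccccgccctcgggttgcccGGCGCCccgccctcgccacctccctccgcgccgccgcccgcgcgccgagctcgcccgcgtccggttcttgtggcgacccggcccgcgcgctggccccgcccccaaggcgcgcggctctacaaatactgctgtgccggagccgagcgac
The element begins at position -231 from the start site in Id2 and at -148 in Id4. Of the 12 windows of the 8 genes, 6 held GGCGCC, which 11.9% of all 32851 windows hold. Windows of one gene can overlap, and a pair of overlapping Smad5 windows among the 6 hold the same site. The E-box CANNTG, searched on both strands like GGCGCC, was in 5 of the 12 windows and in 72.3% of all windows. Neither share of all windows was matched for base composition. In Id2 the E-box begins at -196 and does not overlap GGCGCC. No GGCGCC lay in the Id3 window. A match is a run of letters in this window and was not tested as a binding site.

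Library 1 had 1849 barcodes and 10440891 UMIs, and library 2 had 2088 barcodes and 13330251 UMIs. After filters, 1825 and 2064 cells were kept, and 4 barcode sequences occurred in both libraries. Clustering without the listed pathway genes gave 17 clusters, named from marker genes in the sense of "like". Astrocyte-like cells (729 in library 1 and 606 in library 2) carry genes that astrocytes and quiescent stem cells share, and no attempt was made to split them. Activated cells (264 and 547) carry S-phase and progenitor genes, dividing cells (115 and 310) carry mitotic genes, and neuroblasts (276 and 320) are young migrating neurons. The 23 astrocyte-like markers summed to 75256 and 63683 CPM (the usual scaled count, here a gene's UMIs relative to all UMIs of the class) in astrocyte-like cells and to at most 5891 CPM in the other 3 classes. The 22 activated markers summed to 7786 and 7643 CPM in activated cells and to 6781 and 6983 CPM in dividing cells, so these classes lie close together. Neuroblast markers reached 20820 and 17811 CPM in dividing cells against 35410 and 34921 CPM in neuroblasts. Slc1a3, the gene of the sorted GLAST, was at 1508 to 3004 CPM in the astrocyte-like clusters and 91.1 to 249 CPM in neuroblast clusters. In spite of the gates, 99 and 9 oligodendrocytes and 2 and 4 microglia were present. Median depth was 3538 and 3587.5 UMIs in astrocyte-like cells, 10056.5 and 8589 in activated, 8845 and 9607.5 in dividing cells, and 2963 and 3407 in neuroblasts. With 1 library per age there is no replicate check and no test. The 95% intervals (exact Poisson for levels, Clopper-Pearson for shares) cover counting error only.

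Id2, Id3 and Id4 were highest in astrocyte-like cells and much lower in each of the other 3 classes. Between astrocyte-like and activated cells, a gene was counted as different at 2-fold or more in both libraries, with at least 20 UMIs over both classes together. Among the 10 genes, 4 were higher in astrocyte-like cells (Id2, Id3, Id4 and Bmpr1b) and 0 were higher in activated cells. Of all 10767 genes compared, 19.7% were higher in astrocyte-like and 14.1% in activated cells. In a single library and either direction the count was 4 of 10 in each, where 43.9% and 40.5% of all genes passed. Against neuroblasts, 5 of the 9 compared in both libraries were higher in astrocyte-like cells (Id1 joins the former) and 0 lower, where 21.4% and 14.1% of all genes were. In a single library, 6 of 10 passed in library 1 and 5 of 9 in library 2, where 46.4% and 44.1% of all genes did.

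Id2 (chr12:25093799-25097140, minus strand) is an Id protein also made in many differentiating lineages. Its level in astrocyte-like cells was 952 CPM (916 to 989) in library 1 and 773 (738 to 809) in library 2. In activated cells it was 95.1 and 73.5 CPM, in dividing cells 100.2 and 81.0, and in neuroblasts 144 and 104. Thus the first class stood 10.0-fold and 10.5-fold above activated cells, with no overlap of intervals, while neighbours among the other 3 classes overlapped. The neuroblast value of library 2 rested largely on cluster 14, 19 cells led by Pcp4, Igfbpl1 and Elavl2, which held 60 of the 131 Id2 UMIs (577 CPM, 440.1 to 742). Without those cells the neuroblasts of library 2 had 61.7 CPM (48.2 to 77.9), below activated and dividing cells but with overlapping intervals, and astrocyte-like cells stood 12.5-fold above them. This comparison was chosen after the values had been seen. In the larger clusters 1 and 9 Id2 was at 111 and 182 CPM in library 1 and at 23.3 and 88.5 CPM in library 2.

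Id3 (chr4:136143497-136145755, plus strand), often made together with Id1, showed the widest gap of the 10 genes between astrocyte-like and activated cells. It reached 825 CPM (792 to 860) and 735 (700.3 to 770.0) in astrocyte-like cells. Activated cells had 57.0 and 38.9 CPM, dividing cells 34.4 and 24.0, and neuroblasts 53.0 and 24.7. The drop from astrocyte-like to activated cells was 14.5-fold and 18.9-fold. After each cell was thinned to 2000 UMIs, Id3 was seen in 9.35% (6.02 to 13.7) and 5.88% (3.52 to 9.14) of neuroblasts. In oligodendrocytes of library 1, taken as a reference, it was seen in 6.52% (2.43 to 13.7) of 92 cells. The neuroblast value cannot be told from theirs. Library 2 had 8 such cells, so its neuroblasts are also set beside library 1. In library 1 Id3 was at 338 CPM over all kept cells and at 44.1 CPM in the oligodendrocytes. Whether these cells make Id3 themselves was not tested, so they set no firm level of free RNA. The library 1 oligodendrocytes had a median of 4210 UMIs. Without thinning, the Id3 shares were 15.2% and 9.38% of neuroblasts and 16.2% of the oligodendrocytes.

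Id4 (chr13:48261228-48266026, plus strand), an Id protein typical of neural precursors and astrocytes, was at 952 CPM (916 to 989) and 1005 (965 to 1046) in astrocyte-like cells. It was at 97.7 and 148 CPM in activated cells, 155 and 135 in dividing cells, and 219 and 209 in neuroblasts. Unlike Id3, the neuroblast signal stood clear of the oligodendrocyte level. Thinned neuroblasts had an Id4 UMI in 28.9% (23.3 to 35.0) and 31.7% (26.5 to 37.2) of cells, against 2.17% (0.264 to 7.63) of oligodendrocytes. In both libraries it was higher in neuroblast cluster 9 (301 and 248 CPM) than in cluster 1 (147 and 182 CPM). Unthinned shares were 38.4% and 41.6% against 6.06%. Astrocyte-like cells exceeded activated cells by 9.74-fold and 6.79-fold, and neuroblasts by 4.36-fold and 4.81-fold.

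**Figure D1:**
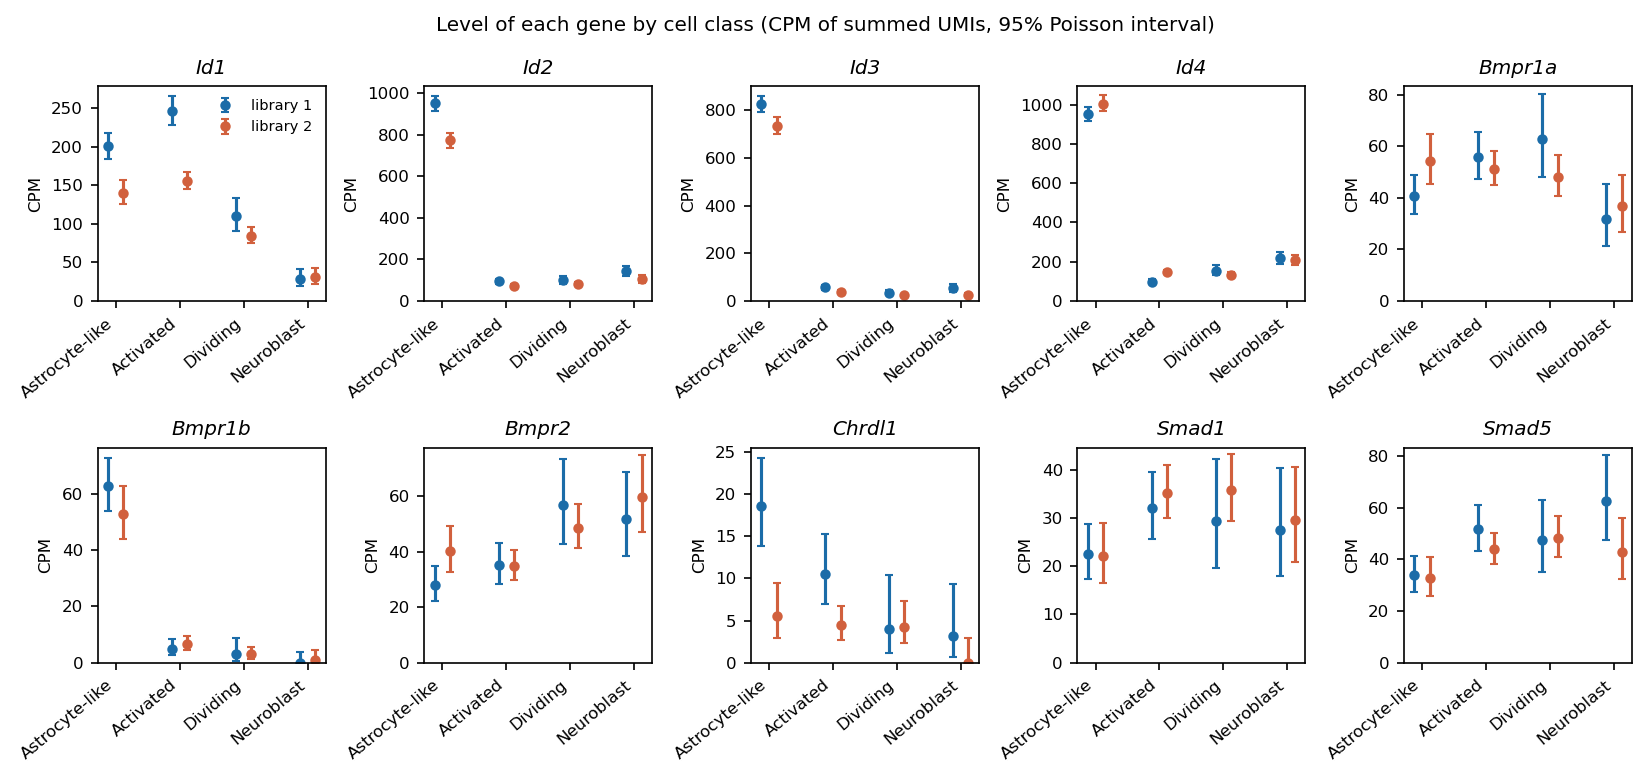
Level of each of the 10 genes (CPM of UMIs summed over a class, linear axis from 0) in 4 cell classes; points are single libraries and bars exact 95% Poisson intervals. Id2, Id3, Id4 and Bmpr1b stand high in astrocyte-like cells in both libraries, while Id1 is highest in activated cells (247 and 156 CPM).

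Id1 (chr2:152736251-152737410, plus strand), a classical immediate target of BMP signalling, followed another order. It was highest in activated cells, with 247 CPM (228 to 266) in library 1 and 156 (145 to 167) in library 2. Astrocyte-like cells had 201 CPM (185 to 218) and 140.4 (126 to 156), dividing cells 110.3 and 84.6, and neuroblasts 28.6 and 31.1. The order of the 4 classes was the same in both libraries, but in library 2 the intervals of activated and astrocyte-like cells overlapped. Activated cells exceeded dividing cells 2.24-fold and 1.84-fold. Dividing cells exceeded neuroblasts 3.85-fold and 2.72-fold. The dividing level was uneven. Cluster 11, led by the late mitotic genes Cdc20, Cenpa and Ccnb1, had 298 CPM (231 to 378, 27 cells) and 154 CPM (132 to 178). Cluster 4 had 55.04 and 42.0 CPM, which alone is under 2-fold above neuroblasts in each library. It had the neuroblast markers Sp9 and Dlx5 beside mitotic genes among its leading genes, and neuroblast was its second nearest class. In thinned neuroblasts 6.504% and 6.21% of cells had an Id1 UMI, against 6.52% (2.43 to 13.7) of the library 1 oligodendrocytes. These levels cannot be told apart, and whether the oligodendrocytes make Id1 themselves was not tested. Unthinned, these shares were 9.06%, 10.6% and 15.2%.

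Activated cells held more RNA per cell, so the scale of UMIs per cell moved every gene's ratio towards them by the same factor. With that shift the contrast for Id1 grew. An astrocyte-like cell carried 0.771 and 0.545 Id1 UMIs and an activated cell 2.48 and 1.35. For Id2 the same values were 3.65 and 2.998 in astrocyte-like and 0.955 and 0.638 in activated cells, so its direction held. On this scale the median of all genes shifted to -1.38 and -1.15 (log2, astrocyte-like over activated). Id2, Id3, Id4 and Bmpr1b stayed higher in astrocyte-like cells against that shift. Past 2-fold the other way, higher in activated cells, were 5 of the 10 genes in library 1 and 4 in library 2, in place of 0 and 0. The median of all genes was itself past 2-fold in that direction, so these counts are no result about the 10 genes.

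Between activated and dividing cells 0 of the 9 compared were past 2-fold in both libraries in either direction, against 1.29% of all genes higher in activated and 1.9% higher in dividing cells. In a single library 2 of 9 passed in library 1 (Id1 and Chrdl1) and 1 of 10 in library 2 (Bmpr1b), where 11.8% and 7.32% of all genes did. Id2 was at ratios of 0.95 and 0.91 and Id3 at 1.66 and 1.62 (activated over dividing). Between dividing cells and neuroblasts only Id1 of the 8 compared passed, higher in dividing cells, where 5.93% of all genes were higher and 5.55% lower. The count was 1 in each library taken alone, where 20.6% and 18.6% of all genes passed in either direction. With a stricter cell filter (at least 1000 genes and at most 5% mitochondrial UMIs) the counts were 0 and 1 between activated and dividing cells and 3 and 3 between dividing cells and neuroblasts. That filter was followed by a new clustering, and the share of all genes under it was not computed.

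Within astrocyte-like cells the Id genes did not share one pattern over the clusters. Cluster 0 (513 and 298 cells) was led by Cxcl14, Slc7a10 and Aqp4, cluster 2 (91 and 234 cells) by Gfap, S100a6 and Thbs4, and cluster 10 (125 and 74 cells) by Notum, Thrsp and Tnfrsf19. Id2 was highest in cluster 0 (1169 and 1141 CPM), intermediate in cluster 2 (732 and 547) and lowest in cluster 10 (555 and 355). Id3 was highest in cluster 2 (1321 and 939 CPM) and lowest in cluster 10 (659 and 381). Id4 was also lowest in cluster 10 (419 and 554 CPM, against 1082 to 1156 and 934 to 1293 in the others). Id1 went the other way and was highest in cluster 10, at 401 and 187 CPM, against 113 and 142 in cluster 0. In this cluster Id2, Id3 and Id4 were thus low and Id1 high beside clusters 0 and 2. Its immediate early genes, a list of 20, summed to 7167 and 9775 CPM, against 1583 and 1606 CPM in cluster 0, and their part in this was not tested.

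**Figure D2:**
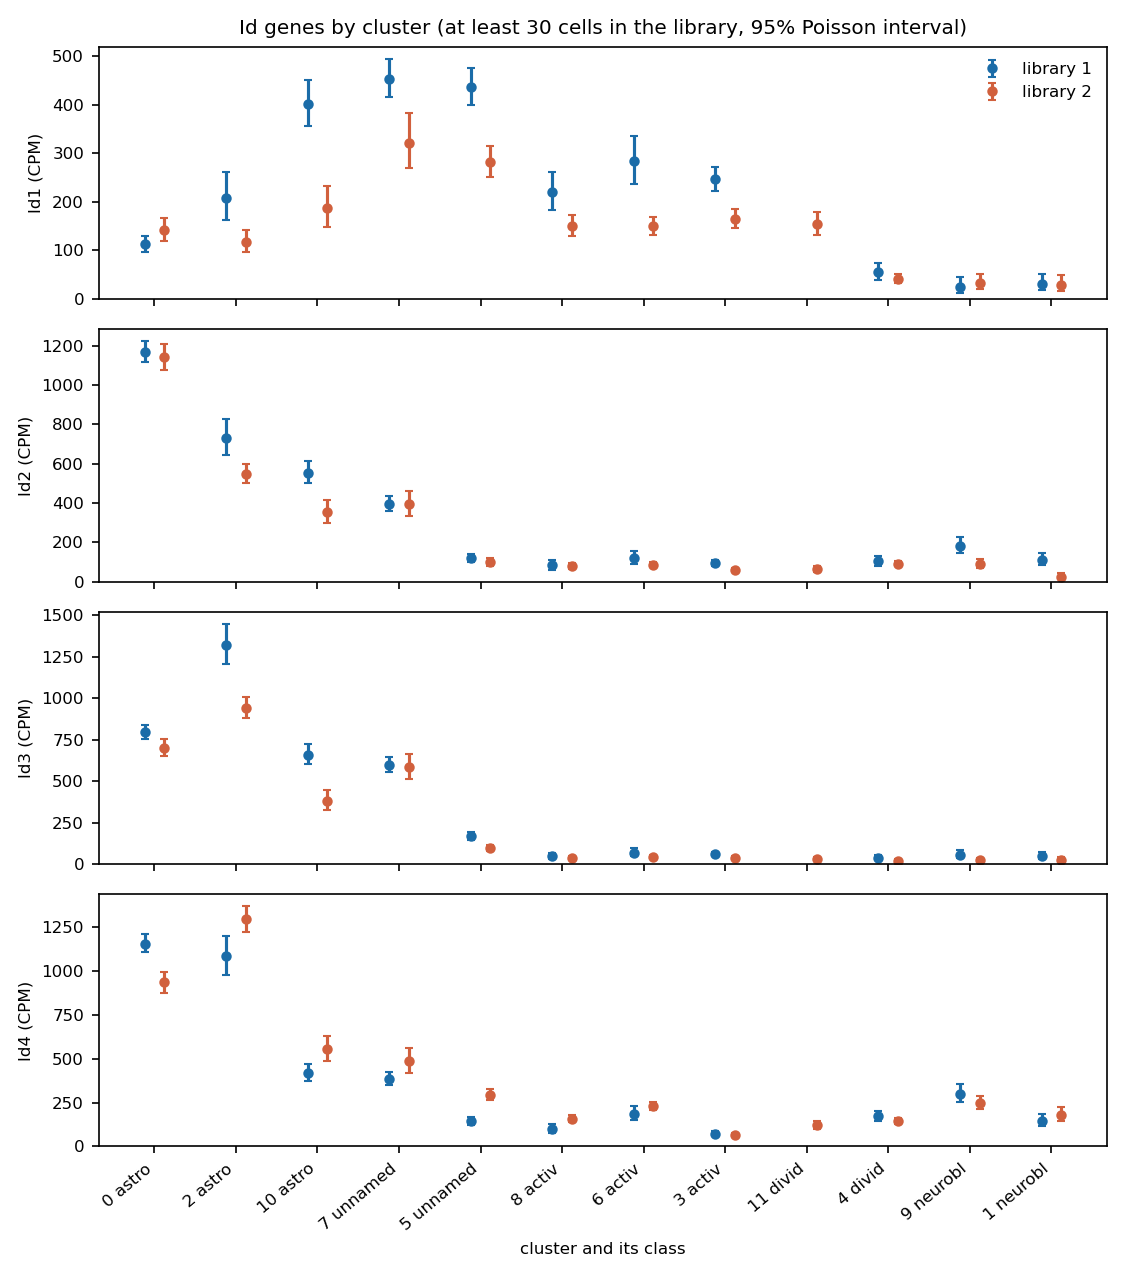
Id1 to Id4 (CPM, linear axes from 0, with 95% Poisson intervals) in each cluster of the 4 classes and the 2 unnamed clusters; a point needs at least 30 cells in its library. Id1 peaks in clusters 10, 7 and 5, while Id2, Id3 and Id4 are high in clusters 0 and 2 and low in the activated and dividing clusters.

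Clusters 5 and 7 matched no class well enough to be named. For cluster 5 the nearest class was endothelial, by 7 of 13 markers, which rested on 4 cells; without those cells it was activated, by 5 of 22 markers, under the 25% that naming required. Cluster 7 (192 and 79 cells) was led by Cebpb, Atf3, Cyr61 and Junb, genes of early stress and injury responses, and cluster 5 (129 and 145 cells) had Gsx1, Dll1 and Ccnd1 among its leading genes. The immediate early genes summed to 27432 and 32453 CPM in cluster 7 and 10884 and 11707 CPM in cluster 5, against 1796 to 6271 CPM in the 4 classes. Such genes can be switched on while tissue is dissociated, and their part in the Id1 level was not tested. Over 25 points (a cluster in a library with at least 30 cells), Id1 had a Pearson correlation of 0.81 with the summed early genes, Chrdl1 0.67, Id3 0.38, Id2 0.19 and Id4 0.12. Points of a library share its depth and free RNA, so these values only describe the pattern.

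Most astrocyte-like cells carried several Id genes at once. After thinning to 2000 UMIs, at least 1 of the 4 Id genes was seen in 96.3% and 95.3% of astrocyte-like cells, and all 4 in 10.9% and 8.76%. The share with at least 1 was 56.7% and 51.7% of activated cells, 54.0% and 43.5% of dividing cells, and 47.2% and 46.7% of neuroblasts. In oligodendrocytes of library 1 it was 21.7% of 92 cells, with 19 cells showing 1 Id gene and 1 cell showing 2. For this share, 80 and 35 astrocyte-like cells, 3 and 5 activated, 2 and 0 dividing and 30 and 14 neuroblast cells fell short of 2000 UMIs and were left out. Within the astrocyte-like class, detection of one Id gene was compared between cells with and without another. Id3 was seen in 68.6% (60.7 to 75.8) of the cells with Id1 and 55.2% (50.7 to 59.6) of those without in library 1, and in 60.5% (51.1 to 69.3) against 50.0% (45.3 to 54.7) in library 2. Id2 was seen in 80.2% (75.8 to 84.1) of cells with Id3 and 71.1% (65.3 to 76.4) of those without in library 1, and in 72.8% (67.4 to 77.8) against 56.4% (50.3 to 62.4) in library 2. The intervals overlapped for Id1 and Id3 in library 2 and for Id2 and Id3 in library 1. Id4 was seen in 74.4% (66.8 to 81.0) of cells with Id1 and 77.3% (73.3 to 80.9) of those without in library 1, with overlapping intervals, and in 79.0% of both in library 2.

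**Figure D3:**
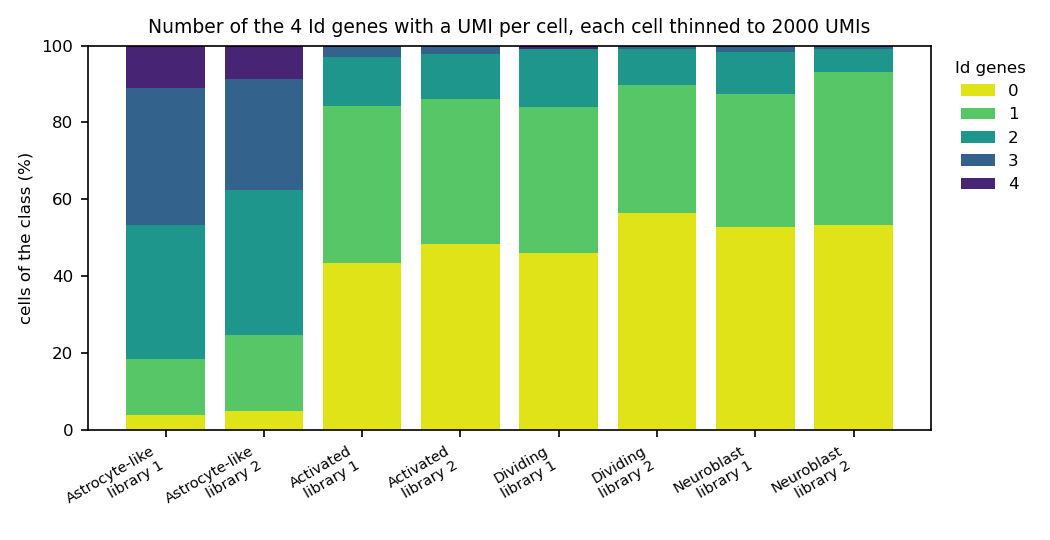
Share of cells (percent, bars from 0 to 100) with a UMI of 0, 1, 2, 3 or 4 of the 4 Id genes after thinning to 2000 UMIs, by class and library. Cells with none are 3.70% and 4.73% of astrocyte-like cells and between 43.3% and 56.5% of the other classes.

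The 3 receptors behaved differently from each other. Bmpr1b (chr3:141837136-142169425, minus strand), a type I receptor, was largely seen in astrocyte-like cells, at 62.9 CPM (54.0 to 72.9) and 52.7 (43.9 to 62.9). Activated cells had 4.91 CPM (2.61 to 8.39) and 6.74 (4.61 to 9.51), and dividing cells 3.04 and 2.96. In neuroblasts there were 0 UMIs in library 1, where a count of 0 allows up to 3.18 CPM (3 counts in the class), and 1 UMI in library 2. Astrocyte-like cells were 12.8-fold and 7.83-fold above activated cells. Against neuroblasts they were at least 19.8-fold higher in library 1 (floor of 3 counts), and the ratio in library 2 was 66.1 with a counting interval of 11.7 to 2633. Within astrocyte-like cells Bmpr1b was lowest in cluster 10, where it had 44.7 CPM in library 1 and 9.59 CPM (4 UMIs) in library 2, against 67.9 and 84.6 CPM in cluster 0.

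Bmpr1a (chr14:34410734-34503341, minus strand) is the other type I receptor, and it spanned 1.97-fold and 1.48-fold from its lowest to its highest class. It was at 40.7 and 54.4 CPM in astrocyte-like cells, 55.8 and 51.4 in activated, 62.8 and 48.1 in dividing cells, and 31.8 and 36.7 in neuroblasts. Bmpr2 (chr1:59763400-59879014, plus strand), the type II receptor that pairs with both, was at 27.9 and 40.4, 35.1 and 34.7, 56.7 and 48.7, and 52.0 and 59.8 CPM in the same order. For both genes all 8 ratios compared stayed under 2-fold, and intervals of neighbours in the order of levels overlapped in each library. From lowest to highest class Bmpr2 spanned 2.03-fold in library 1 and 1.72-fold in library 2. In library 1 these were astrocyte-like (22.0 to 34.8) and dividing cells (42.8 to 73.6), a pair not among those compared, and their intervals did not overlap. Seen per cell after thinning, Bmpr1b was in 12.9% (10.5 to 15.8) and 11.7% (9.21 to 14.7) of astrocyte-like cells and in 0.383% and 2.03% of activated cells, with 20.7% and 18.6% of astrocyte-like cells before thinning. None of the 92 thinned oligodendrocytes of library 1 had a Bmpr1b UMI, with an upper bound of 3.93%.

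Chrdl1 (chrX:143285674-143394262, minus strand), chordin-like 1, is a secreted protein that binds BMPs and keeps them from their receptors. It gave 144 UMIs in all kept cells of library 1 and 66 in library 2. Astrocyte-like cells had 18.6 CPM (13.9 to 24.4) in library 1 and 5.53 (2.94 to 9.46) in library 2, and activated cells 10.6 (7.02 to 15.3) and 4.42 (2.74 to 6.76). Dividing cells had 4.05 and 4.28 CPM and neuroblasts 3.18 (3 UMIs) and 0, where 0 allows up to 2.39 CPM. The order of the 4 classes was the same in both libraries, with overlapping intervals between neighbours in each. The ratio of astrocyte-like cells to neuroblasts in library 1 was 5.84, with a counting interval of 1.89 to 29.2. In the unnamed cluster 7 Chrdl1 reached 27.3 CPM (18.5 to 38.7) and 14.97 (5.50 to 32.6), and in cluster 5 22.1 and 10.7.

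Smad1 (chr8:79338395-79399518, minus strand) and Smad5 (chr13:56703010-56742377, plus strand), which carry the signal from the type I receptors to the nucleus, stayed within 2-fold over the 4 classes in each library. Smad1 was at 22.5 and 22.1 CPM in astrocyte-like cells, 32.1 and 35.1 in activated, 29.4 and 35.9 in dividing cells, and 27.6 and 29.5 in neuroblasts. Smad5 was at 34.0 and 32.7, 51.7 and 44.0, 47.6 and 48.4, and 62.6 and 43.1 CPM in the same order. Both were lowest in astrocyte-like cells in each library, the class where Id2, Id3 and Id4 were highest. All 8 ratios compared for each gene stayed under 2-fold, and intervals of neighbours in the order overlapped. Some classes further apart did not overlap. In library 1 the Smad5 interval of astrocyte-like cells (27.5 to 41.5) lay below those of activated cells (43.4 to 61.1) and neuroblasts (47.6 to 80.7). In library 2 their Smad1 interval (16.5 to 29.003) lay below those of activated (30.02 to 40.9) and dividing cells (29.5 to 43.3). All remaining comparisons of astrocyte-like cells with another class had overlapping intervals for these genes. Inside the astrocyte-like class, Smad1 and Smad5 were highest in cluster 10 (38.0 and 31.2 CPM, and 50.2 and 57.5 CPM). In oligodendrocytes of library 1, used above as a reference, Smad1 was at 32.5 CPM (14 UMIs) and Smad5 at 23.2 CPM. Thinned, Smad1 was seen in 6.52% (2.43 to 13.7) of those cells. It was seen in 4.62% and 4.03% of astrocyte-like cells and in at most 8.49% in the other classes. Over all kept cells of library 1 Smad1 was at 30.8 CPM, near its oligodendrocyte level. Id4 was at 382 CPM over all kept cells and at 13.9 CPM in the oligodendrocytes. Whether the oligodendrocytes make Smad1 themselves was not tested, so they set no background level for it.

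Over the 25 cluster points the members fell into sets with like patterns. Id2 correlated with Id3 at 0.91 and with Id4 at 0.81, and Id3 with Bmpr1b at 0.89 (Pearson, log2 of CPM plus 10). Id1 correlated with Chrdl1 at 0.82 but with Id2 at only 0.35. Smad1 ran against Id4 (-0.57) and Id2 (-0.50). Among 8975 genes with enough UMIs, the 5 with the pattern most like Id1 were Egfr (0.94), a growth factor receptor used to isolate activated stem cells, then Inppl1, Me3, Myo10 and Hes1. For Id2 they were Sdc2, Smpdl3a, Bcan, Tspan7 and Gpr37l1 (0.94 each), and for Id3 Slc9a3r1 (0.97), Glud1, Sdc2, Slco1c1 and Fxyd1. Those nearest to Id4 were Gm14964, Scg3 (0.90 each), Eci2, Gm11713 and Emp2. Those nearest to Chrdl1 were Me3 (0.86), Actr3b, Lfng, Id1 and Kcne1l. With a Spearman correlation, 3 of the 5 were again among the nearest for Id1 and for Chrdl1, 2 for Id4, and 0 for Id2 and Id3, so the order among many near-equal genes is not firm for Id2 and Id3.

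Few BMP family ligands were detected, on a list that also holds TGF-beta and inhibin genes. Of 28 listed, 21 had under 20 UMIs in both libraries over astrocyte-like cells and neuroblasts together, Bmp2, Bmp4 and Bmp6 among them. Of the 6 compared in both libraries, 5 were higher in astrocyte-like cells than in neuroblasts and than in activated cells (Bmp1, Bmp7, Gdf10, Inhbb and Tgfb2) and 0 were lower. Of all genes, 21.4% were higher and 14.1% lower against neuroblasts, and 19.7% and 14.1% against activated cells. A scarce gene that is low in the other class can reach 20 UMIs through the astrocyte-like cells alone, so for ligands and antagonists the minimum itself bears on the direction of the counts and medians. Tgfb2 is a TGF-beta gene and Inhbb an inhibin subunit gene, so the count and the median are not those of BMP ligands alone. The protease Bmp1, named with the BMPs though it is none, was at 24.7 and 29.8 CPM in astrocyte-like and 7.17 and 5.05 CPM in activated cells. Bmp7, a BMP ligand, was at 21.4 and 16.2 against 2.64 and 2.53 CPM, and Gdf10 at 16.1 and 15.7 against 0.75 and 0.42 CPM. The list's median log2 ratio, astrocyte-like over activated, was 2.21 and 2.56, against 0.01 and 0.01 over all genes, with a gene at 0 set to 3 counts.

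Among 24 extracellular antagonists and modulators, 6 were higher in astrocyte-like cells than in neuroblasts (of 8 compared) and than in activated cells (of 9 compared) in both libraries (Nog, Bmper, Crim1, Dand5, Htra1 and Sparcl1), and only Twsg1 was lower, beside the same 21.4% and 19.7% of all genes higher and 14.1% lower in both. Noggin (Nog), the best known BMP antagonist of this niche, was at 14.7 and 9.78 CPM in astrocyte-like cells and 0.38 and 0.63 in activated cells. Its ratio in library 1 was 38.8 with a counting interval of 6.59 to 1571, and 15.5 (4.68 to 80.6) in library 2. Htra1 and Sparcl1 are among the genes that lead cluster 0 and so are no separate finding. The list's median was 1.31 and 2.49.

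Among 19 receptors and co-receptors, of which 12 were compared, Bmpr1b and the co-receptor Rgma were higher in astrocyte-like cells than in neuroblasts, and Tgfbr1, Rgmb and Acvr2b were higher in neuroblasts, where 21.4% and 14.1% of all genes were. Rgma was at 168 and 165 CPM in astrocyte-like cells and 17.0 and 23.1 in neuroblasts. Of 21 SMADs and intracellular regulators, 0 were higher in astrocyte-like cells than in neuroblasts in both libraries and 4 were lower (Smad4, Smurf2, Nedd4l and Zeb2), out of 18 compared, with the same shares of all genes. Smad4, the shared partner of all receptor-activated SMADs, was at 19.3 and 23.0 CPM in astrocyte-like cells, 45.7 and 42.3 in activated cells, and 64.7 and 55.02 in neuroblasts. The list's median, astrocyte-like over neuroblast, was -0.81 and -0.37, against 0.02 and -0.02 over all genes.

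Of 16 listed BMP target genes, 8 were higher in astrocyte-like cells than in neuroblasts (the 4 Id genes, Hey1, Msx1, Prdm16 and Zfp423) and 0 lower, while against activated cells 4 were higher (Id2, Id3, Id4 and Msx1), out of 10 compared in each case. These 8 and 4 stand beside 21.4% and 19.7% of all genes, and the Id genes among them are the members described above. Against neuroblasts Msx1 had 48 to 1 UMIs in library 1 and 20 to 0 in library 2, and Zfp423 31 to 1 in library 1. They reached 20 UMIs there through astrocyte-like cells alone, so the minimum bears on their direction. The same can hold for scarce genes of the bHLH list that follows. Msx1, a homeobox gene, was at 17.2 and 8.51 CPM in astrocyte-like and 1.51 and 1.26 CPM in activated cells. The feedback gene Smad6 was among 6 targets under 20 UMIs. Among 20 Id partners and other bHLH factors, of which 14 were compared, 6 were higher and 2 lower in astrocyte-like cells than in neuroblasts, and 1 was higher and 5 lower than in activated cells. The shares of all genes are 21.4% and 14.1%, and 19.7% and 14.1%. The E-protein genes Tcf12 and Tcf3 were lower in astrocyte-like than in activated cells. Tcf12 was at 70.4 and 60.4 against 221 and 153 CPM, and Tcf3 at 64.0 and 91.0 against 234 and 229.6 CPM. Tcf4 was 2.40-fold and 2.29-fold higher in neuroblasts than in astrocyte-like cells. Usp1, a deubiquitinase that stabilises Id proteins, was at 29.7 and 34.9 CPM in astrocyte-like and 228 and 181 CPM in activated cells. Hes5 was likewise lower in astrocyte-like cells (1242 and 1284 CPM) than in activated cells (3274 and 4279 CPM), but it is among the leading genes of activated cluster 6.

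**Figure D4:**
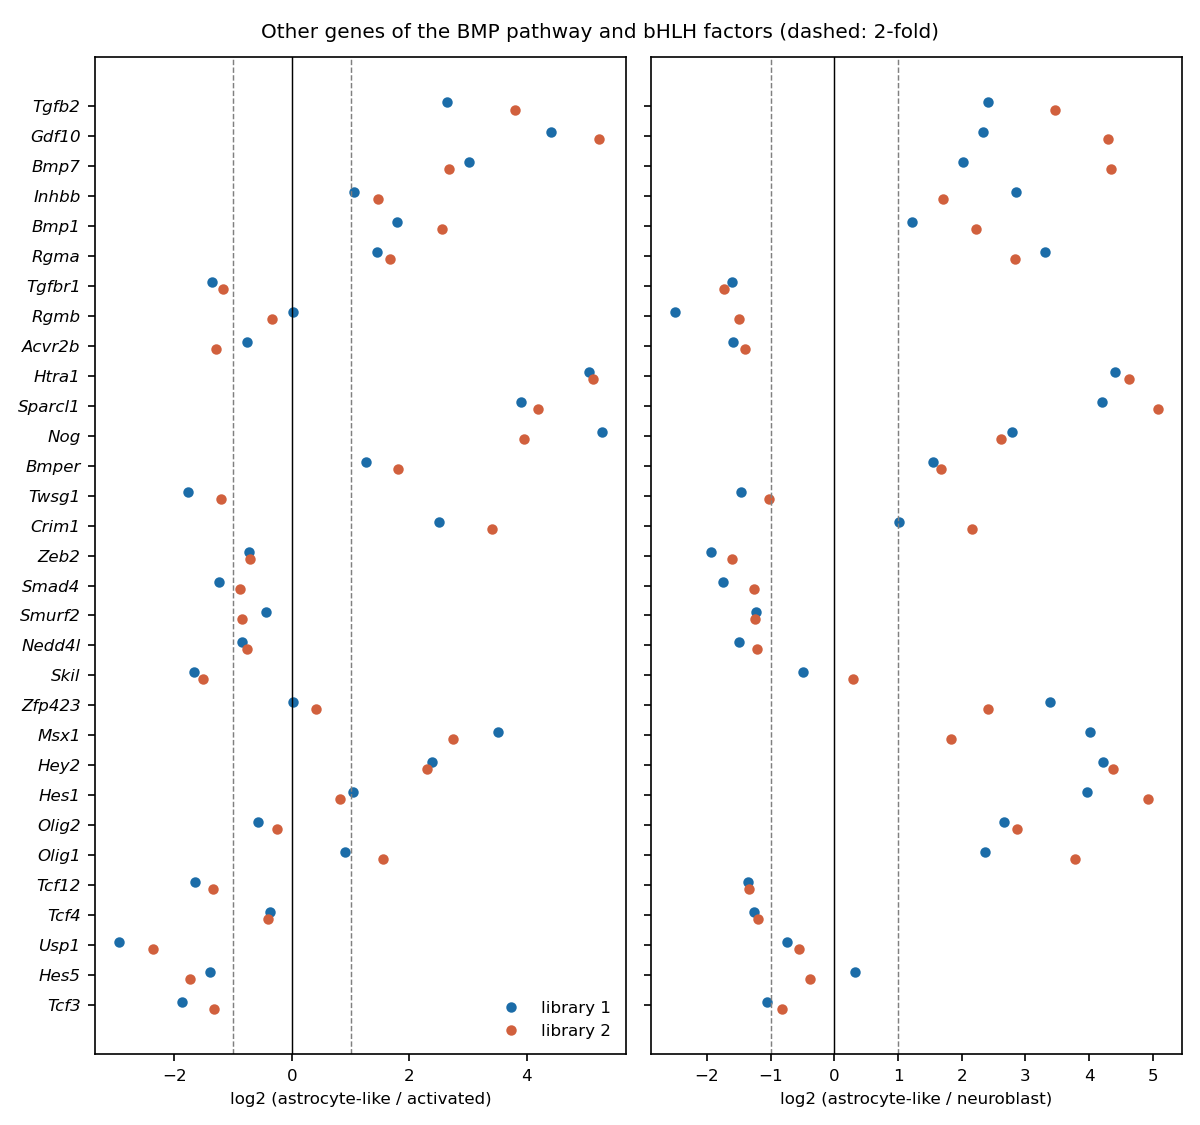
Log2 ratios of CPM of astrocyte-like to activated cells (left) and to neuroblasts (right) for the pathway genes that the text's rule names; points are libraries and dashed lines mark 2-fold. A gene at 0 in one class is drawn at its bound from 3 counts; ligands and most antagonists lie to the right, SMAD regulators and E-protein genes to the left.

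Between the libraries within a class, with 1.5-fold and 20 UMIs as the rule, 1 of 10 genes passed in astrocyte-like cells, 3 of 10 in activated cells, 0 of the 8 with enough UMIs in dividing cells and 1 of 8 in neuroblasts, where 16.2%, 12.9%, 17.2% and 18.2% of all genes passed in either direction. The stricter cell filter gave 2, 5 and 3 in the first 3 classes. Cells were clustered anew under it and no share of all genes was computed, so these counts have no background. In astrocyte-like cells the gene was Chrdl1, 3.36-fold higher in library 1, with intervals that did not overlap. In cluster 0 it had 30 UMIs (17.6 CPM) in library 1 and 4 UMIs (3.89 CPM) in library 2. Cluster 2 had 6 and 3 UMIs (17.1 and 3.31 CPM), and cluster 10 had 16 and 6 UMIs (21.7 and 14.4 CPM).

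In activated cells Chrdl1 was 2.39-fold and Id1 1.58-fold higher in library 1, and Id4 was 1.51-fold higher in library 2. The Id1 difference had the same direction in each activated cluster (by 1.49-fold, 1.89-fold and 1.46-fold for clusters 3, 6 and 8). The Id4 difference did not. Within cluster 3 Id4 was 1.08-fold higher in library 1, but within clusters 6 and 8 it was 1.22-fold and 1.59-fold higher in library 2. Cluster 3 holds 130 of 264 activated cells of library 1 but 170 of 547 of library 2, where cluster 6 is the largest with 216. The part of these cell numbers in the Id4 difference was not tested. In neuroblasts Id3 was 2.15-fold higher in library 1 (53.0 against 24.7 CPM, 50 and 31 UMIs), where its share of cells was near that of oligodendrocytes. The astrocyte-like markers summed to 4083 CPM there in library 1 and 2733 CPM in library 2. Their part in the Id3 difference was not tested.

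Id1 in astrocyte-like cells was 1.43-fold higher in library 1, under the threshold. The clusters disagreed, the ratio of library 1 to library 2 being 0.80, 1.78 and 2.15 for clusters 0, 2 and 10. Id2 (1.23-fold), Id3 (1.12-fold) and Id4 (1.06-fold, the other way) differed by less, although the intervals of Id2 and Id3 did not overlap. In neuroblasts Id2 was 1.38-fold higher in library 1, and without cluster 14 it joined Id3 as past 1.5-fold (144 against 61.7 CPM).

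**Figure D5:**
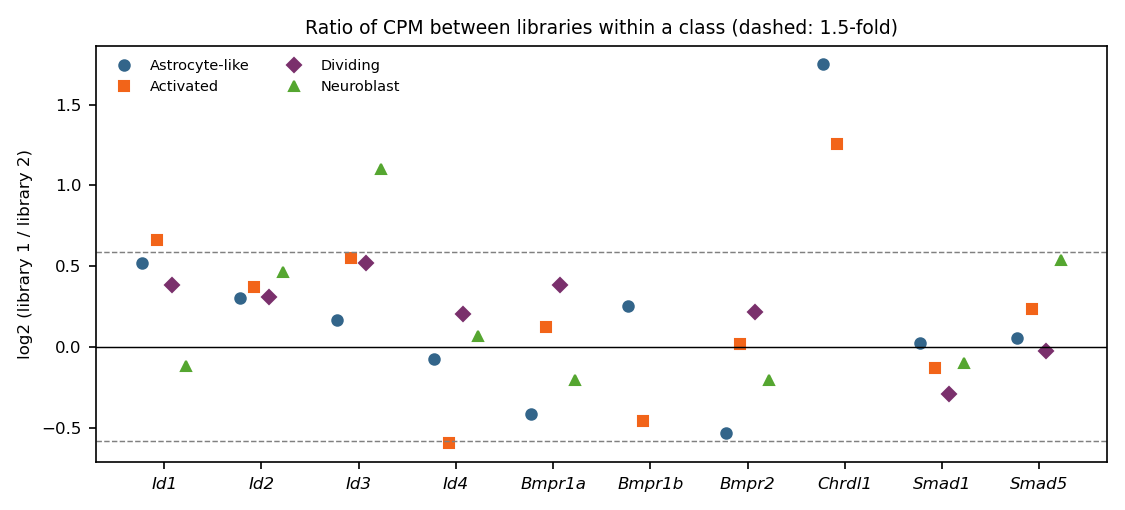
Log2 ratio of the CPM of library 1 to library 2 within each class for the genes with at least 20 UMIs; dashed lines mark 1.5-fold. Chrdl1 stands highest, at 1.75 in astrocyte-like and 1.26 in activated cells, and Smad1, Smad5 and the receptors stay inside the dashed lines.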

How the data were processed

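The authors deposited 1 matrix of UMI counts (raw, not normalized) with genes as rows and barcodes as columns, holding both samples. Per the submitters' processing notes, Cell Ranger 2.0.0 and the builds GRCm38.p3 and mm10 were used, with no role given. For cell calling, gene annotation and library merging, nothing is given in the sources used here. Gene positions are those of GENCODE M21 on GRCm38.

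Filtering required 500 genes per barcode and a mitochondrial share up to 10%, which removed 9 and 13. Scrublet with an expected rate of 1.5% marked 15 and 11 doublets, which were removed. Counts scaled to 10000 per cell and log-transformed gave 2000 variable genes (listed genes left out), 30 principal components, 15 neighbours and Leiden clusters at resolution 1 (scanpy 1.11.5, leidenalg 0.10.2, Python 3.11.15, seed 1). A cluster took the class with the highest mean fold of its markers (207 markers of 14 classes) if at least 3 markers and 25% of the class's measured markers reached 1.5-fold and no other class had more among the 10 leading genes. That naming rule, with its 25% minimum, was chosen once clusters were known.

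UMIs were summed per class and library. A gene at 0 was set to 3 counts for ratios. Thinned shares drew 2000 UMIs per cell. Every one of the 10 genes is named. From each list of the pathway (123 genes in 6 lists), the genes past 2-fold the same way in both libraries were eligible, up to 4 per direction, and Dand5, Hey1 and Prdm16, outside that limit, were named after their values were seen to complete a count. For each Id gene and Chrdl1 the 5 most alike genes with at least 200 UMIs and 20 CPM in a cluster are named. The genes, lists and comparisons were chosen with earlier results of these data known.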

Additional observations from a re-analysis of the deposited data

Results flagged for a closer look

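Id1 was higher in clusters that were given no class name, and so stand outside the comparisons of the 4 classes, than in any of those classes. In cluster 5 it was at 435 CPM (398 to 475) in library 1 and 282 CPM (252 to 315) in library 2. In cluster 7 it was at 453 CPM (415 to 494) and 322 CPM (269 to 383). The highest class level was 247 and 156 CPM, in activated cells. Cluster 5 lay nearest to the endothelial class, by 7 of 13 markers. In library 2 it held 4 cells with at least 10 UMIs of endothelial markers, which held 18 UMIs of Id1. Without them the cluster lay nearest to the activated class, by 5 of 22 markers and so still short of a name, and Id1 was at 268 CPM (239 to 300.4) there. In library 1 the endothelial markers of cluster 5 summed to 13.6 CPM, with 10 of 13 at 0.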

How the results depend on the processing

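No paired analysis was possible because each age has 1 library and no library number is tied to an age; no replicate could be left out for the same reason. Of 905 ratios of the 10 genes between classes, recomputed under the alternatives, 862 kept their side of 2-fold, 40 newly passed and 3 no longer passed. A change of direction was counted only for ratios past the threshold in the main setting, and 0 of these reversed. Ratios under it could change sign and still count as kept or as newly passed. Of 417 ratios between libraries 380 kept their side of 1.5-fold, 31 newly passed and 5 no longer passed. By the same rule 1 reversed: Id4 in activated cells, -0.60 (log2), was 0.11 in the largest cluster only. Of 296 list medians 274 kept their side of 2-fold, 16 newly passed and 5 no longer passed. Among medians past 2-fold in the main setting 1 reversed: antagonists, astrocyte-like over activated in library 1, 1.31, was -0.081 in UMIs per cell. The causes were not tested.

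Counts of the 10 genes past 2-fold moved as follows, library 1 first. The share of all genes was not computed under the alternatives, so these counts have no background beside them. For astrocyte-like against activated cells (4 and 4), UMIs per cell gave 9 and 8, with 4 in each library higher in astrocyte-like and 5 and 4 higher in activated cells. For activated against dividing cells (2 and 1), the filter of at least 1000 genes and at most 5% mitochondrial UMIs gave 0 and list genes in the clustering 1 in library 1, a minimum of 100 UMIs gave 1 and 0, and in library 2 resolution 2 gave 0 and cluster 5 counted as activated gave 3. For dividing cells against neuroblasts (1 and 1), the stricter cell filter and resolution 0.5 each gave 3 and 3, thinning 2 and 2, UMIs per cell 4 and 6, kept doublets and the mean of single-cell CPM 2 each in library 1, and no UMI minimum 2 in library 2. Between libraries at 1.5-fold, astrocyte-like cells (1) gave 2 with list genes in the clustering, with thinning, with cluster 7 added and with the stricter cell filter. Activated cells (3) gave 1 with thinning and 5 with the stricter cell filter. Dividing cells (0) gave 1 at resolution 2 and in the largest cluster, 3 at resolution 0.5 and with the stricter cell filter, and 2 with thinning. Neuroblasts (1) gave 2 at resolution 2, with list genes in the clustering, with thinning and without cluster 14, and 3 with the mean of single-cell CPM and in the largest cluster.

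Counts of the 123 pathway genes moved as follows, again with no share of all genes computed under the alternatives. For astrocyte-like against activated cells, 37 and 32 genes passed, 23 and 22 higher in astrocyte-like and 14 and 10 in activated cells. A minimum of 100 UMIs gave 23 and 19 there, split 10 to 13 and 10 to 9, 1 and 2 for activated against dividing (8 and 6), 6 and 5 for dividing against neuroblast (12 and 11), and 22 and 19 for astrocyte-like against neuroblast (42 and 43). UMIs per cell gave 50 and 50 for astrocyte-like against activated, split 13 to 37 and 16 to 34, and 35 and 46 for dividing against neuroblast, where kept doublets gave 7 in library 2. No UMI minimum gave 30 and 21 for activated against dividing and 29 and 28 for dividing against neuroblast. For activated against dividing, the stricter cell filter gave 1 in library 1, resolution 2 and thinning 1 each in library 2, and cluster 5 added 15 and 10. Of the 5 genes most alike, Spearman kept 3 for Id1, 0 for Id2, 0 for Id3, 2 for Id4 and 3 for Chrdl1, and class sums 3, 1, 1, 2 and 2. Resolution 0.5 formed no activated class and gave no value for it. Adding cluster 5 or 7 to a class leaving out cluster 14, a minimum of 100 UMIs for the 10 genes and no minimum for the pathway genes were chosen after seeing the data. Genes under 20 UMIs, most ligands included, are too scarce here for a ratio.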

Other observations

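Small groups of other cells had their own sets of Id genes. Oligodendrocyte precursors, with 16 cells in library 1 and 31 in library 2, had Id2 at 556 CPM (387 to 774) and 303 CPM (217 to 411), while Id4 was at 31.8 and 88.6 CPM and Bmpr1b had 0 UMIs in both. Ependymal cells of library 2 (13 cells) had Id4 at 472 CPM (333 to 651) and Id3 at 102 CPM (44.1 to 201). The 4 cells of cluster 5 with endothelial markers held 18 UMIs of Id1 and 15 of Id3, but 0 of Id4.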
